A study of Mus musculus with 2 samples.

Results

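The 46 nuclear genes whose symbols begin with Nduf were followed through the germ cell stages and somatic cell types of adult mouse testis, in 1 single-cell library from an Nsun7 knockout and 1 from a wild-type (WT) testis. Members were every symbol in either deposited gene list that begins with Nduf and does not contain -ps, so that 46 of the 30052 joined symbols were taken, and all 46 were present in both lists. Nsun7 encodes a protein of the RNA cytosine methyltransferase-like family, and the series title links it to assembly of the sperm flagellum. The labels give the mice as adult and the tissue as testis. They do not give the strain, the deleted part of the gene, or how many animals stood behind a library.

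Complex I, the NADH dehydrogenase of the respiratory chain, takes electrons from NADH, passes them to ubiquinone and pumps protons across the inner mitochondrial membrane. Its core subunits come from both genomes: those of the matrix arm, with flavin and iron-sulfur clusters, are nuclear, and those that form the proton channels are encoded in mitochondrial DNA. Accessory subunits surround this core, and assembly factors build it without staying in the finished enzyme. During spermatogenesis the cells move from spermatogonia through the spermatocytes of meiosis to round spermatids, which elongate, pack their DNA with protamines and stop transcription. Several mitochondrial proteins are replaced by testis forms on this path, and the sex chromosomes are transcriptionally silenced in spermatocytes.

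By role, the members were 7 nuclear core subunits, 10 accessory subunits of the matrix arm, 19 accessory subunits of the membrane arm, 8 assembly factors and the 2 genes Ndufa4 and Ndufa4l2. Ndufa4 carries a complex I name for historical reasons, and its protein is a subunit of complex IV, cytochrome c oxidase. The label of the group is therefore not exact for these 2 genes, and the assembly factors are not subunits either. Of the members, 2 lie on the X chromosome, Ndufa1 and Ndufb11, and 44 on autosomes.

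There were 16837 barcodes with 210531446 counts in the knockout and 16376 barcodes with 220247156 counts in the WT matrix. Filtering left 13869 knockout cells (median 12020 counts) and 15139 WT cells (median 8723 counts), and 2168 barcode names occurred in both libraries, which are running numbers and not sequences. Nsun7 itself stood at 40.9 CPM (a gene's share of the counts of a class or library, on the usual CPM scale) over all kept knockout cells and at 174 CPM over all kept WT cells. The transcript was thus lower but not absent in the library labelled knockout, and which part of the gene was deleted is not given in the sources used here. Clusters were named from marker genes and each class is to be read as like the type named. With 1 library per genotype there is no replicate check and no test. Values in brackets after a ratio are the bounds of a 95% interval, and such bounds hold counting error alone. Levels are shares of a class's own counts, so a gene can move because others do.

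The promoters of 5 genes are shown because the stage results below turn on them or because they held searched motifs. They are RefSeq windows of GRCm38.p6, from 250 bases before to 50 bases after the gene's start, written 5′ to 3′ on the gene's own strand. The first pair holds the 2 X-linked members, the next pair holds Ndufa4 and its paralogue AA467197, and the last is the only member window with both of the motifs named for NRF1 and CRE. Capitals mark a match to a searched motif.
Ndufa1: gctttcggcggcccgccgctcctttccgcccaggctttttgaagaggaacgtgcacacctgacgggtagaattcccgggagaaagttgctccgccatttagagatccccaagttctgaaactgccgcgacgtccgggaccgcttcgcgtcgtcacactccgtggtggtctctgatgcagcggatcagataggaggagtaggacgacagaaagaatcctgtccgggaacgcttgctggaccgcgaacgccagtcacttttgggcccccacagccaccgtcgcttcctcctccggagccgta
Ndufb11: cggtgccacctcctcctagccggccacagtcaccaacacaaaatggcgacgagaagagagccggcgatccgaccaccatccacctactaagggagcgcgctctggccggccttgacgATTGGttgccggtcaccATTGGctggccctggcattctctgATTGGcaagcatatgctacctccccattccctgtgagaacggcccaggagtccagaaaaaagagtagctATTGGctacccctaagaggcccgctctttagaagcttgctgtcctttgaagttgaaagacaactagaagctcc
Ndufa4: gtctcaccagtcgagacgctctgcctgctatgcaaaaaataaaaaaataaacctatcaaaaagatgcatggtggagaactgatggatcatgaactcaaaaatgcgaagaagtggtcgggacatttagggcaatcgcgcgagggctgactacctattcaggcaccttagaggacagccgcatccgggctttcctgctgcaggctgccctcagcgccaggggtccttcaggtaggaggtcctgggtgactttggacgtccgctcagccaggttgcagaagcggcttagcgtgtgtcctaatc
AA467197: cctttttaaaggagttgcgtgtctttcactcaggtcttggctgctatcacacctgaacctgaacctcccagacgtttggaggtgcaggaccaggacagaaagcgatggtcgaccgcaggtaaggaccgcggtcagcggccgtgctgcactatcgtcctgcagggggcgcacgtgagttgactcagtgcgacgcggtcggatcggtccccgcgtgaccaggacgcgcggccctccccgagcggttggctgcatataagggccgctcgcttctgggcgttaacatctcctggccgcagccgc
Ndufa11: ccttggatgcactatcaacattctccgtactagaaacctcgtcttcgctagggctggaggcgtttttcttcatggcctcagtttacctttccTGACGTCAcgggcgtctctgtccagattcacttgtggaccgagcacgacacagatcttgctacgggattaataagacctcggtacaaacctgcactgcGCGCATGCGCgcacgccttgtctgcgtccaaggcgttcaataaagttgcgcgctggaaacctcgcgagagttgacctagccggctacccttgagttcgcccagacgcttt
The Ndufa1 window lies at chrX:37191189-37191488, minus strand. The Ndufb11 window lies at chrX:20617570-20617869, minus strand. The Ndufa4 window lies at chr6:11907401-11907700, minus strand. That of AA467197 is chr2:122637637-122637936, plus strand. That of Ndufa11 is chr17:56717512-56717811, plus strand.

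Windows were found for 40 of the 46 members, some with more than 1 start, and those without one included Ndufa2, Ndufa4l2, Ndufaf6, Ndufb9 and Ndufs1. Member windows held a median of 20.5 CpG dinucleotides, against a median of 7 over all 32841 promoter windows. The NRF1 motif, which is the later of the 2 runs of capitals in the Ndufa11 window, the site of a factor known for respiratory chain genes, was in the windows of 3 of 40 members (Ndufa11, Ndufaf4 and Ndufaf5), or 7.5%, against 0.971% of all windows. The CRE motif TGACGTCA, the site of CREB and CREM, was in those of 3 (Ndufa10, Ndufa11 and Ndufb2), or 7.5%, against 1.79% of all. The MYB core TAACTG was in those of 3 (Ndufc2, Ndufs6 and Ndufv3), or 7.5%, against 10.1% of all. The CCAAT box was in those of 14, or 35%, against 37.4% of all, and the Ndufb11 window held it 4 times. Both strands were searched, and no 2 of the printed matches overlap. A match is a match of letters and says nothing about binding.

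Among the named classes, the summed level of the 46 members was similar in early and late spermatocytes and was lower in each spermatid class that followed. Unnamed cluster 19, led by the late spermatocyte marker Piwil1, is in none of these classes. It held 8530 CPM in knockout and 9353 CPM in WT cells. With the WT library clustered alone, a cluster of 1073 cells led by Piwil1 was named late spermatocytes. Reading the named classes in stage order, the sum was 7557 CPM in knockout and 8188 CPM in WT spermatogonia. It was then 6210 CPM in knockout and 6503 CPM in WT early spermatocytes. Late spermatocytes held 6286 CPM in the knockout and 6812 CPM in the WT library. In round spermatids the sum was 4637 CPM in the knockout and 4769 CPM in the WT library. Elongating spermatids held 1430 CPM in the knockout and 1699 CPM in the WT library, the lowest of the 9 classes compared in both. Leydig cells, the steroid-producing cells of the interstitium, were the highest class, at 11274 CPM in knockout and 11600 CPM in WT cells.

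**Figure D1:**
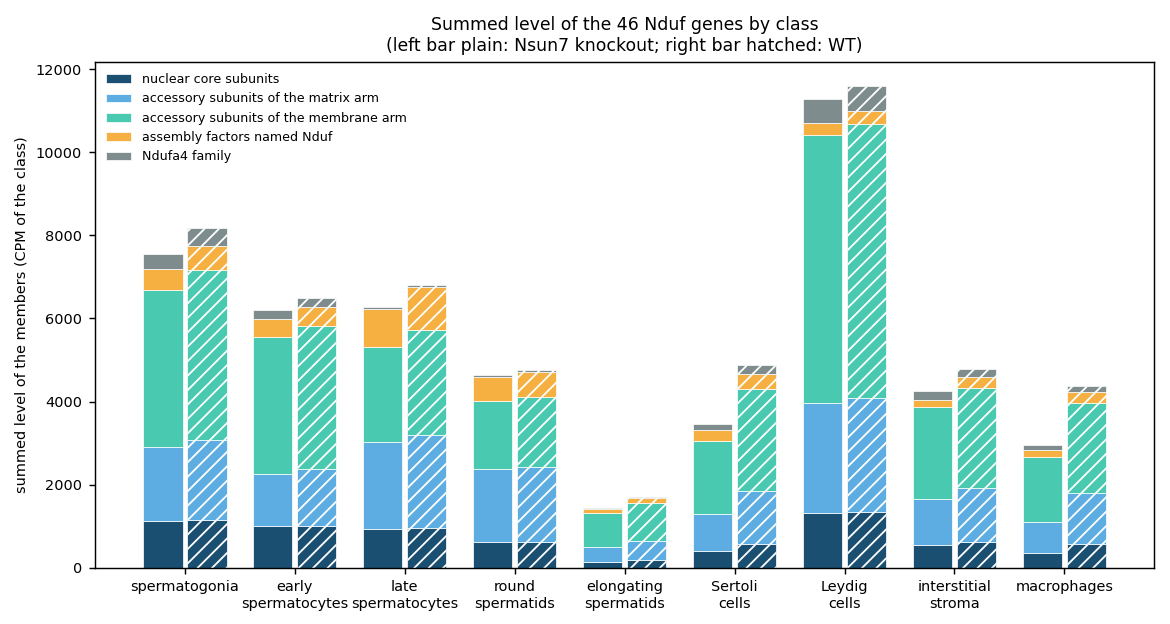
Summed level of the 46 members in CPM (y axis, linear from 0) for 5 germ cell classes and 4 somatic classes (x axis), stacked by role, with the plain left bar for the Nsun7 knockout and the hatched right bar for the WT library. Leydig cells stand highest at 11274 CPM in the knockout and 11600 CPM in the WT library, and elongating spermatids lowest at 1430 CPM in the knockout and 1699 CPM in the WT library.

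The members did not share 1 stage profile. Among the 5 named germ cell classes, the class with a member's highest level was the same in both libraries for 42 of 46 members. It was spermatogonia for 23 members: the core subunits Ndufs3, Ndufs7, Ndufs8 and Ndufv1, the accessory subunits Ndufa2, Ndufa3, Ndufa9, Ndufa11, Ndufa13, Ndufb2, Ndufb3, Ndufb6, Ndufb8, Ndufb9, Ndufb11, Ndufc2, Ndufs5 and Ndufv3, the assembly factors Ndufaf4, Ndufaf5, Ndufaf7 and Ndufaf8, and Ndufa4. Early spermatocytes held the peak of 4 members, Ndufa1, Ndufa10, Ndufaf1 and Ndufs1. Late spermatocytes held that of 13, among them Ndufa4l2, Ndufa6, Ndufa8, Ndufa12, Ndufaf3, Ndufb4, Ndufb5, Ndufb10, Ndufc1, Ndufs4, Ndufs6 and Ndufv2. Round spermatids held that of 2, Ndufa5 and Ndufaf2. For Ndufa7, Ndufab1, Ndufaf6 and Ndufb7 the 2 libraries gave different classes. Unnamed cluster 19 does not enter these peaks. It held Ndufaf3 at 596 CPM in knockout and 759 CPM in WT cells, above late spermatocytes. Ndufb7 stood there at 191 CPM in knockout and 184 CPM in WT cells, above each named germ cell class. Elongating spermatids held the lowest level of 37 of the 46 members in both libraries. Peak and lowest classes were not counted over all genes, so these counts do not set the members apart. Of all genes, 57.3% in the knockout and 55.6% in the WT library were at least 2-fold lower in elongating than in round spermatids.

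**Figure D2:**
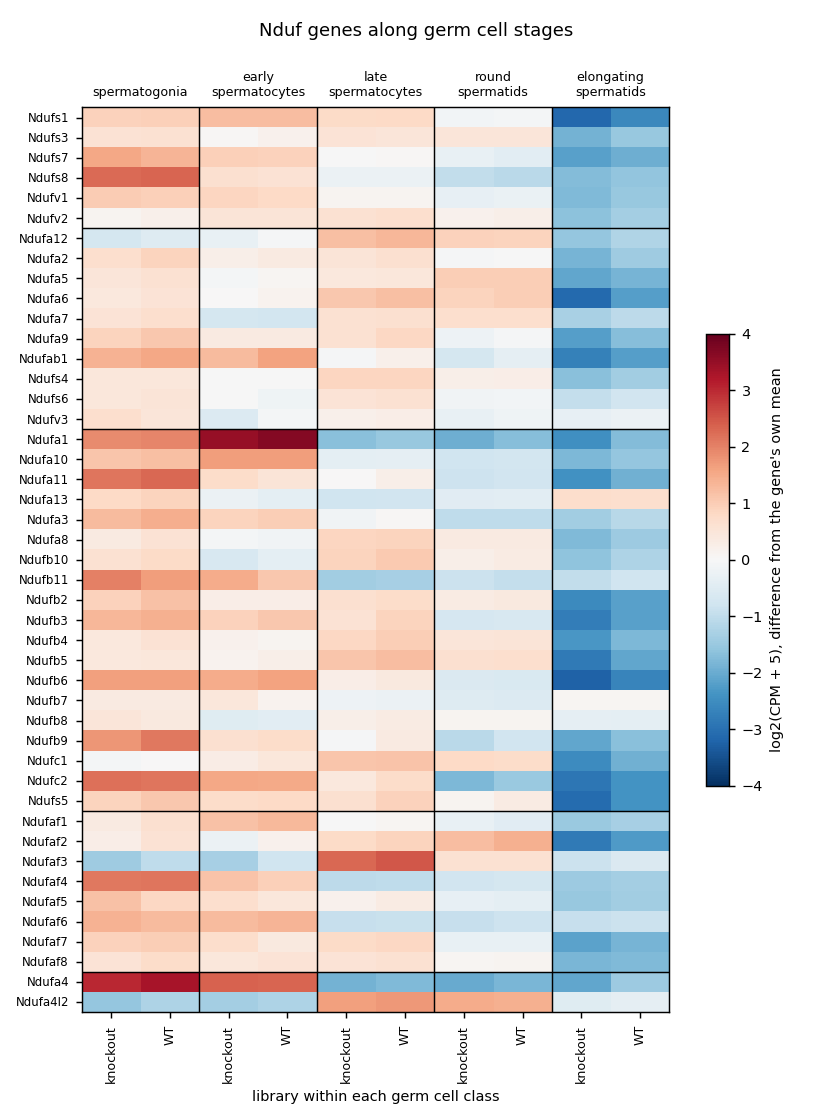
Heat map of 45 of the members (rows, in blocks of core subunits, matrix arm, membrane arm, assembly factors and the Ndufa4 family) over 5 germ cell classes (column pairs, knockout left of WT). Colour gives log2(CPM + 5) as the difference from the gene's own mean over the 10 columns, and the column pairs of a stage look alike, with 42 of all 46 members peaking in the same class in both libraries.

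The 7 nuclear core subunits carry the flavin and the iron-sulfur clusters. Ndufv1, which binds NADH and the flavin, stood at 230 CPM in knockout and 222 CPM in WT spermatogonia, and at 88.8 CPM in knockout and 91.6 CPM in WT round spermatids. Ndufv2, its neighbour in the NADH-oxidising module, was flatter, with 234 CPM in knockout and 251 CPM in WT spermatogonia and 334 CPM in knockout and 352 CPM in WT late spermatocytes. Core genes of 1 enzyme thus differed in the stage of their highest level, and both of these were lowest in elongating spermatids, where Ndufv1 held 29.55 CPM in the knockout and 36.0 CPM in the WT library.

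Ndufs8 and Ndufs7, which hold iron-sulfur clusters on the way to ubiquinone, were highest in spermatogonia. Ndufs8 stood at 198 CPM in knockout and 207 CPM in WT spermatogonia, and at 31.0 CPM in knockout and 30.8 CPM in WT late spermatocytes. Ndufs7 stood at 128 CPM in knockout and 112.5 CPM in WT spermatogonia, and at 40.4 CPM in knockout and 42.3 CPM in WT late spermatocytes. The interval of the 2 libraries' ratio for Ndufs8 in late spermatocytes spans 0 on the log2 scale.

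Ndufs1, the largest iron-sulfur subunit, was highest in early spermatocytes, at 161 CPM in the knockout and 162 CPM in the WT library. Ndufs3 stood between 86.4 and 129 CPM in the 4 knockout classes before elongation and between 95.8 and 130 CPM in the WT ones.

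Between early and late spermatocytes, 9 of the 10 accessory genes of the matrix arm were higher in late ones in both libraries and 1, Ndufab1, was lower in both. Of the 19 accessory genes of the membrane arm, 7 were higher and 11 lower in both libraries. The share of all genes higher by any amount was not counted. With 5 CPM added, 3 matrix-arm genes were at least 2-fold higher and 1 lower in each library. Of the membrane-arm genes, 1 was higher and 6 lower in the knockout, and 2 higher and 4 lower in the WT library. Of all genes, 28.7% in the knockout and 27.5% in the WT library were 2-fold higher, and 37.3% in each were lower. The matrix-arm genes summed to 1257 CPM in knockout and 1374 CPM in WT early spermatocytes, and to 2084 CPM in knockout and 2231 CPM in WT late ones. The membrane-arm genes summed to 3302 CPM in knockout and 3433 CPM in WT early spermatocytes, and to 2292 CPM in knockout and 2540 CPM in WT late ones. The membrane-arm difference was largely that of Ndufa1, which held 893 CPM of the early sum in the knockout and 1006 CPM in the WT library. Without it, an alternative added after seeing the data, the log2 ratio of late over early was -0.08 in the knockout and turned to 0.05 in the WT library, beside -0.53 in the knockout and -0.43 in the WT library with it.

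Among the matrix-arm genes, Ndufa7 dipped in early spermatocytes. It held 119 CPM in knockout and 117 CPM in WT early spermatocytes, then 307 CPM in knockout and 315 CPM in WT late ones. Ndufab1, the mitochondrial acyl carrier protein, went the other way, with 159 CPM in knockout and 201 CPM in WT early spermatocytes and 60.6 CPM in knockout and 73.8 CPM in WT late ones. Among the membrane-arm genes, Ndufb9 was highest in spermatogonia, at 479 CPM in the knockout and 615 CPM in the WT library, and stood at 62.9 CPM in knockout and 78.4 CPM in WT round spermatids. Exons of Ndufb9 share 201 bases with the predicted gene Gm49356 on the same strand, so its reads can be split between them.

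From spermatogonia to early spermatocytes, 7 of 45 measured members were at least 2-fold lower in each library, 6 of them in both. Measured means a mean of 10 CPM or more over the 2 classes, and these counts add 5 CPM to each level. Over all measured genes, 10.8% were 2-fold lower at this step in the knockout and 11.8% in the WT library. The 6 shared members were Ndufa7, Ndufa11, Ndufa13, Ndufb9, Ndufb10 and Ndufs8. Only Ndufa1 was 2-fold higher in both libraries, where 7.93% of all genes were so in the knockout and 9.14% in the WT library. The median member stood at -0.44 on the log2 scale in the knockout and at -0.45 in the WT library, beside medians over all genes of -0.01 in the knockout and 0.02 in the WT library.

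At the step from early to late spermatocytes members moved both ways, with smaller shares past 2-fold than among all genes. At least 2-fold lower were 10 of 45 measured members in the knockout and 9 of 46 in the WT library, against 37.3% of all genes in each. At least 2-fold higher were 6 in the knockout and 7 in the WT library, against 28.7% of all genes in the knockout and 27.5% in the WT library. The 8 members lower in both were Ndufa1, Ndufa4, Ndufa10, Ndufab1, Ndufaf1, Ndufaf4, Ndufb6 and Ndufb11, and the 6 higher in both were Ndufa4l2, Ndufa6, Ndufa7, Ndufa12, Ndufaf3 and Ndufb10. The summed member level moved little, by a log2 ratio of 0.02 (-0.01 to 0.05) in the knockout and 0.07 (0.05 to 0.09) in the WT library.

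The X-linked members had the lowest ratios of late over early spermatocytes among the complex I subunits in both libraries. Ndufa1, a small membrane-arm subunit, stood at 893 CPM in knockout and 1006 CPM in WT early spermatocytes, and at 20.2 CPM in knockout and 23.2 CPM in WT late spermatocytes. That is a log2 ratio of late over early of -5.46 (-5.65 to -5.28) in the knockout and -5.44 (-5.53 to -5.35) in the WT library. Before this fall, early spermatocytes were above spermatogonia, which held 293 CPM in the knockout and 305 CPM in the WT library.

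Ndufb11, another membrane-arm subunit, stood at 49.5 CPM in knockout and 36.8 CPM in WT early spermatocytes, and at 2.52 CPM in knockout and 2.89 CPM in WT late spermatocytes. The log2 ratio was -4.30 (-4.91 to -3.72) in the knockout and -3.67 (-4.01 to -3.33) in the WT library. Round spermatids were higher again, at 5.93 CPM in the knockout and 5.18 CPM in the WT library. Of all measured X-linked protein-coding genes, 65.8% were at least 4-fold lower at this step in the knockout and 70% in the WT library, against 21.4% of autosomal ones in the knockout and 20.3% in the WT library. An estimate of free RNA was made from 4 Leydig cell genes counted outside Leydig cells. For Ndufa1 in late spermatocytes the estimate was 3.23 CPM in the knockout and 5.19 CPM in the WT library, and for Ndufb11 it was 1.16 CPM in the knockout and 1.21 CPM in the WT library. Exons of Ndufb11 share 117 bases with Rbm10 on the other strand.

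Ndufa4, on chromosome 6, had a ratio between those of the X-linked pair. It stood at 356 CPM in knockout and 432 CPM in WT spermatogonia and at 223 CPM in knockout and 218 CPM in WT early spermatocytes. Late spermatocytes held 6.96 CPM in the knockout and 7.90 CPM in the WT library, a log2 ratio to early spermatocytes of -5.00 (-5.34 to -4.68) in the knockout and -4.79 (-4.95 to -4.62) in the WT library. It stayed at or below 11.1 CPM in the spermatid classes of both libraries.

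AA467197, which is no member and was looked at after the values had been seen, is the mouse gene of Nmes1, a paralogue of Ndufa4 whose protein can take the place of Ndufa4 in complex IV. It stood at 16.7 CPM in knockout and 82.6 CPM in WT early spermatocytes, and at 1334 CPM in knockout and 1428 CPM in WT late spermatocytes. The free-RNA estimates were 7.996 CPM in knockout and 65.4 CPM in WT early spermatocytes, of the same order as the levels there. They were 8.69 CPM in knockout and 40.5 CPM in WT late spermatocytes, far below the levels there. Round spermatids held 603 CPM in the knockout and 606 CPM in the WT library. The microRNA gene Mir147 lies within its exons on the same strand.

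Ndufa4l2, a further paralogue known from human cells to respond to low oxygen, was also highest in late spermatocytes. It stood at 2.02 CPM in knockout and 2.58 CPM in WT early spermatocytes, and at 50.2 CPM in knockout and 54.4 CPM in WT late spermatocytes. In round spermatids it stood at 44.6 CPM in the knockout and 42.6 CPM in the WT library. Each paralogue thus had its highest germ cell level in late spermatocytes, where Ndufa4 was near its lowest.

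Assembly factors diverged as well. Ndufaf3, which with Ndufaf4 builds the ubiquinone module, stood at 36.9 CPM in knockout and 55.5 CPM in WT early spermatocytes, and at 504 CPM in knockout and 574 CPM in WT late spermatocytes, a log2 ratio of 3.77 (3.44 to 4.12) in the knockout and 3.37 (3.16 to 3.60) in the WT library. Its partner Ndufaf4 moved the other way, with 32.4 CPM in knockout and 27.8 CPM in WT early spermatocytes and 3.26 CPM in knockout and 3.49 CPM in WT late spermatocytes. Partners in 1 assembly step therefore had opposite profiles. Exons of Ndufaf3 share 48 bases with Impdh2 on the other strand.

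Ndufaf6, named here after its values had been seen, was close to undetected from late spermatocytes onward. It had 20.96 CPM in knockout and 18.57 CPM in WT spermatogonia, and 2 counts (0.148 CPM) in knockout and 24 counts (0.335 CPM) in WT late spermatocytes. Ndufaf2, which holds the place later taken by Ndufa12, was highest in round spermatids, at 262 CPM in the knockout and 296 CPM in the WT library, beside 185 CPM in knockout and 204 CPM in WT late spermatocytes. Ndufa12 itself was highest in late spermatocytes, at 441 CPM in the knockout and 476 CPM in the WT library. Ndufaf1, which helps to build the membrane arm, and Ndufaf5, which modifies Ndufs7, were both low in late spermatocytes. Ndufaf1 stood at 15.3 CPM in knockout and 16.6 CPM in WT late spermatocytes, against 41.96 CPM in knockout and 45.8 CPM in WT early ones. Ndufaf5 stood at 16.1 CPM in knockout and 18.4 CPM in WT late spermatocytes, against 24.8 CPM in knockout and 20.3 CPM in WT early ones, and its WT interval spans 0.

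**Figure D3:**
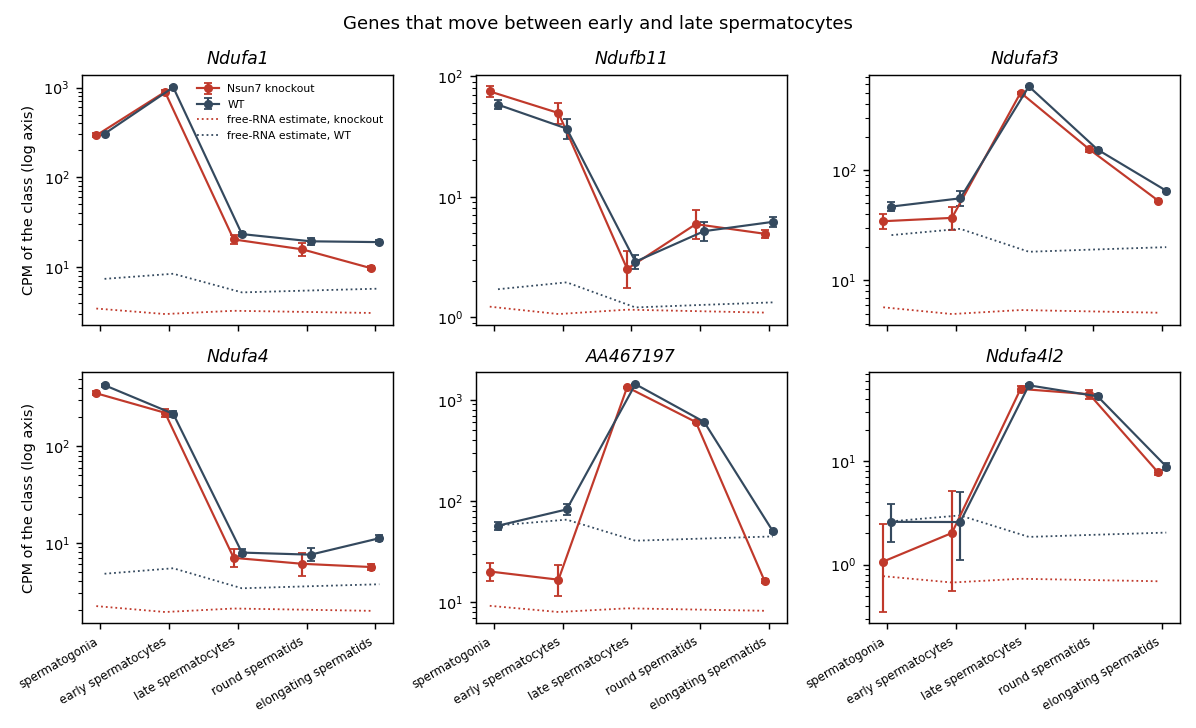
Levels of Ndufa1, Ndufb11, Ndufaf3, Ndufa4, AA467197 and Ndufa4l2 in CPM (y axes, log scale) over the 5 germ cell classes (x axis), red for the knockout and dark blue for the WT library, with 95% Poisson intervals of counting error and dotted lines for the free-RNA estimate. Ndufa1, Ndufb11 and Ndufa4 drop at late spermatocytes while the other 3 rise there, in both libraries.

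The mitochondrially encoded part of complex I did not follow the nuclear part. The 7 mitochondrial Nd genes summed to 24209 CPM in knockout and 23383 CPM in WT early spermatocytes, and to 2696 CPM in knockout and 2431 CPM in WT late spermatocytes. The log2 ratio was -3.17 (-3.19 to -3.15) in the knockout and -3.27 (-3.28 to -3.25) in the WT library, beside 0.02 in the knockout and 0.07 in the WT library for the nuclear members. From round to elongating spermatids the mitochondrial sum was higher, at 766 CPM in the knockout and 1063 CPM in the WT library, against 586 CPM in knockout and 521 CPM in WT round spermatids, while the nuclear sum was lower. The cell filter removed barcodes above 20% mitochondrial counts, which bounds the values of the early classes.

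Other respiratory complexes were read as lists at the same step. Of the 4 complex II genes, 1 was 2-fold lower and 0 higher in each library. Of the 9 nuclear complex III genes, 4 were lower and 3 higher in the knockout, and 3 lower and 2 higher in the WT library. Of the 10 somatic and common nuclear genes of complex IV, 3 were lower and 1 higher in each library.

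The 3 testis forms of complex IV, Cox6b2, Cox7b2 and Cox8c, were all higher, with sums of 2645 CPM in knockout and 2839 CPM in WT late spermatocytes against 172 CPM in knockout and 313 CPM in WT early ones. Of the 15 nuclear complex V genes, 5 were lower in the knockout and 3 in the WT library, and 0 higher. The other complex I assembly factors, 11 genes with other names, had 4 of 9 measured lower and 1 higher in the knockout and 7 of 11 lower and 1 higher in the WT library. The median of the members at this step was 0.10 in the knockout and 0.13 in the WT library on the log2 scale, beside medians of all genes of -0.36 in the knockout and -0.33 in the WT library.

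**Figure D4:**
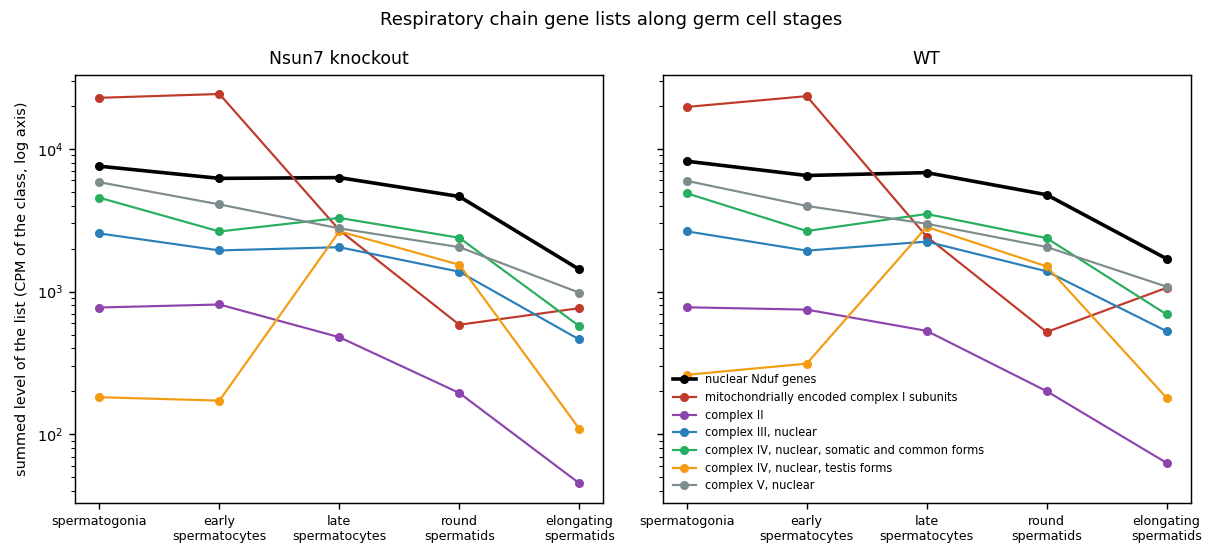
Summed CPM (y axis, log scale) of the nuclear Nduf genes and 6 other respiratory chain lists over the 5 germ cell classes (x axis), with the knockout library in the left and the WT library in the right panel. The mitochondrially encoded complex I genes drop to 2696 CPM in knockout and 2431 CPM in WT late spermatocytes and the testis forms of complex IV reach 2645 CPM in knockout and 2839 CPM in WT ones, while the nuclear Nduf sum changes little.

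From late spermatocytes to round spermatids 6 of 42 measured members were 2-fold lower in the knockout and 8 of 42 in the WT library, against 19.2% of all genes in the knockout and 21.7% in the WT library. None was 2-fold higher, against 23.1% of all genes in the knockout and 25.7% in the WT library. The 6 lower in both included Ndufaf3, Ndufaf7, Ndufb3, Ndufb9 and Ndufc2. Ndufc2, at the base of the membrane arm, fell furthest of them, to 10.96 CPM in knockout and 14.8 CPM in WT round spermatids, against 69.9 CPM in knockout and 88.9 CPM in WT late spermatocytes. All 42 measured members had the same sign in both libraries. Late spermatocytes here include cluster 8, whose leading genes hold none of the markers. With the WT library clustered alone, a cluster of 635 cells sharing most of those leading genes was named round spermatids, with 10 of 12 markers detected. Without cluster 8, an alternative added after seeing the data, the summed ratio was -0.56 in the knockout and -0.61 in the WT library. With cluster 8 it was -0.44 in the knockout and -0.51 in the WT library. The largest number of knockout cells of the class was in cluster 6 (715 of 1497) and of WT cells in cluster 15 (1757 of 3819). Class levels are pooled counts, however, and the clusters weigh in them by counts. Cluster 8 gave 33598 of the 84841 member counts in knockout and 138082 of the 487373 in WT late spermatocytes. Cluster 6 gave 9719 in the knockout and 11395 in the WT library, and cluster 15 gave 41524 in the knockout and 337896 in the WT library.

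Of the 4 steps, elongation had the lowest ratio of summed level in both libraries. At least 2-fold lower were 31 of 39 measured members in the knockout and 29 of 40 in the WT library, with 29 shared, against 57.3% of all genes in the knockout and 55.6% in the WT library. The summed level changed by a log2 ratio of -1.70 (-1.71 to -1.68) in the knockout and -1.49 (-1.50 to -1.48) in the WT library. The median member stood at -1.93 in the knockout and -1.57 in the WT library, beside medians over all genes of -1.36 in the knockout and -1.21 in the WT library. Protamine and transition protein genes took 21.1% of counts in knockout and 18.9% in WT elongating spermatids. With their counts and mitochondrial ones left out of the total, the summed ratio was -1.39 in the knockout and -1.21 in the WT library.

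Ndufaf2, Ndufa6 and Ndufb5 had the lowest ratios of elongating over round spermatids, by the mean of both libraries with 5 CPM added. Ndufaf2 stood at 10.9 CPM in knockout and 18.4 CPM in WT elongating spermatids, against the 262 CPM of knockout and 296 CPM of WT round ones. Ndufa6, a matrix-arm subunit that binds the acyl carrier protein Ndufab1, stood at 12.8 CPM in knockout and 28.6 CPM in WT elongating spermatids, and at 278 CPM in knockout and 301 CPM in WT round ones. Ndufb5, a membrane-arm subunit, stood at 15.6 CPM in knockout and 29.8 CPM in WT elongating spermatids, and at 227 CPM in knockout and 229 CPM in WT round ones. For these genes the free-RNA estimate in elongating spermatids was a sizeable share of the WT level, at 9.61 CPM for Ndufaf2, 15.3 CPM for Ndufa6 and 13.9 CPM for Ndufb5. In the knockout library the estimates were 2.48, 4.10 and 3.55 CPM. Exons of Ndufb5 share 616 bases with Mrpl47 on the other strand, and those of Ndufaf2 share 1955 with a long non-coding RNA gene.

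A few members did not fall. Ndufa13, a membrane-arm subunit also known as GRIM-19, stood at 343 CPM in knockout and 334 CPM in WT elongating spermatids, and at 153 CPM in knockout and 156 CPM in WT round ones. It was the only member 2-fold higher in both libraries, against 9.82% of all genes in the knockout and 9.36% in the WT library. Ndufb7 stood at 123 CPM in knockout and 123 CPM in WT elongating spermatids, and at 79.5 CPM in knockout and 77.9 CPM in WT round ones. Ndufa4 was low in both classes of both libraries, with 5.59 CPM in knockout and 11.1 CPM in WT elongating spermatids.

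Ndufb8, a membrane-arm subunit, and Ndufv3, next to the flavin, changed less than the median member across this step. Ndufb8 stood at 163 CPM in knockout and 160 CPM in WT elongating spermatids, against 229 CPM in knockout and 228 CPM in WT round ones. Ndufv3 stood at 33.6 CPM in knockout and 36.8 CPM in WT elongating spermatids, against 34.3 CPM in knockout and 38.4 CPM in WT round ones. Ndufb8 shares 134 exon bases on its own strand with the predicted gene Gm20538, so its reads can be split between them.

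Ndufa13 overlaps a spermatid gene. Its exons share 375 bases with Tssk6, a testis-specific kinase gene on the other strand, and whether counting used strand is not given in the sources used here, so reads of the 2 genes cannot be told apart from these counts alone. Tssk6 stood at 1426 CPM in knockout and 1484 CPM in WT elongating spermatids, and at 204 CPM in knockout and 183 CPM in WT round ones.

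By cluster sums, the 2 genes were highest in different elongating clusters. The part of Tssk6 reads in the Ndufa13 counts was not tested. In cluster 13, the elongating cluster with the most Ndufa13, it stood at 470 CPM in knockout and 472 CPM in WT cells, with Tssk6 at 923 CPM in knockout and 786 CPM in WT cells. In cluster 12, Tssk6 was at its highest, 5803 CPM in knockout and 5568 CPM in WT cells, and Ndufa13 at 168 CPM in knockout and 148 CPM in WT cells. Over the 46 members, 14 share exon bases with a protein-coding gene on the other strand.

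Between the libraries, the members differed little in the first 4 germ cell stages, as did most genes by the same rule. None of the 45, 45, 42 and 41 measured members of spermatogonia, early spermatocytes, late spermatocytes and round spermatids was 1.5-fold apart between knockout and WT, while 3.5% of all genes were in spermatogonia, 8.21% in early spermatocytes, 3.96% in late spermatocytes and 0.208% in round spermatids. Of all genes, 2.52% were lower in the knockout and 0.98% higher in spermatogonia, 5.82% lower and 2.39% higher in early spermatocytes, 0.186% lower and 3.77% higher in late spermatocytes, and 0.183% lower and 0.0244% higher in round spermatids. The log2 ratio of the summed level, knockout over WT, was -0.12 (-0.13 to -0.10) in spermatogonia, -0.07 (-0.10 to -0.03) in early spermatocytes, -0.12 (-0.13 to -0.11) in late spermatocytes and -0.04 (-0.06 to -0.02) in round spermatids. At the ends of the range in spermatogonia were Ndufaf3, with 34.4 CPM in the knockout and 46.8 CPM in the WT library, and Ndufaf5, with 37.0 CPM in the knockout and 28.2 CPM in the WT library. In early spermatocytes they were Ndufaf3 and Ndufb11, whose levels are given above. Among the named germ cell classes Ndufaf3 was highest in late spermatocytes, which were 10.8% of kept knockout and 25.2% of kept WT cells. The 4 Leydig cell genes of the free-RNA estimate stood at 6.01% of their library level in knockout and 9.04% in WT spermatogonia. That share was 5.22% in knockout and 10.3% in WT early spermatocytes. The cause of the Ndufaf3 gap in these 2 classes was not tested. In late spermatocytes the lowest ratio was that of Ndufb9, with 134 CPM in the knockout and 177 CPM in the WT library, followed by Ndufc2. The highest was that of Ndufs3, with 125 CPM in the knockout and 120 CPM in the WT library, and its interval spans 0. In round spermatids the ratios ran between Ndufab1, with 36.4 CPM in the knockout and 47.98 CPM in the WT library, and Ndufaf1, with 11.9 CPM in the knockout and 10.1 CPM in the WT library.

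The round spermatid result depends on how cells were classed. With the libraries clustered separately, 22 members were 1.5-fold apart and the summed ratio was -0.45. The knockout round class then took in cells that joint clustering had placed in elongating cluster 13. The WT round class changed as well, with a cluster of 635 cells led by Gm6588 and 1700001F09Rik. Those genes are also among the leading genes of joint late spermatocyte cluster 8, where the members summed to 5895 CPM in WT cells. Within the joint clusters that make up the class, the ratios were -0.06 and -0.14.

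In elongating spermatids 4 of 27 measured members were 1.5-fold lower in the knockout and none was higher, against 7.47% of all genes lower, 0.0209% higher and 7.5% either way. Among the 4, Ndufa6 had 12.8 CPM in the knockout and 28.6 CPM in the WT library, a log2 ratio of -1.17 (-1.26 to -1.08). Ndufb5 had 15.6 CPM in the knockout and 29.8 CPM in the WT library, a ratio of -0.93 (-1.01 to -0.84). Ndufa1 had 9.65 CPM in the knockout and 18.9 CPM in the WT library, at -0.97 (-1.07 to -0.86). By cluster Ndufa1 was not lower throughout. It had 23.1 CPM in knockout and 21.1 CPM in WT cells of cluster 4, and 10.7 CPM and 9.25 CPM in cluster 11. Cluster 1 also had slightly more in the knockout, while clusters 0, 2, 3, 12 and 13 had less. The 2 members with the most counts there, Ndufa13 and Ndufb8, had ratios of 0.04 and 0.03.

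The median of the 27 measured members was -0.30, beside -0.07 over all genes. The summed ratio in elongating spermatids was -0.25 (-0.26 to -0.24), and it was below 0 in 8 of 8 clusters with 50 or more cells in each library, from -0.44 to -0.02. The class was made of different clusters: 0, 1 and 2 held most knockout cells, and 4 and 11 most WT cells. With the same mix of clusters in both libraries the ratio was -0.20. With free RNA subtracted it was -0.09, and 1 member passed the 1.5-fold rule. With trimmed-mean scaling, whose factor was -0.33 in this class, the ratio turned to 0.09, so its direction depends on the scaling. In whole libraries the members stood at 2561 CPM over kept knockout cells and 4900 CPM over kept WT cells, and elongating spermatids, the named class with the lowest summed level, were 62.5% of kept knockout cells and 33.6% of kept WT cells. The part of free RNA in the elongating values beyond this subtraction was not tested.

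**Figure D5:**
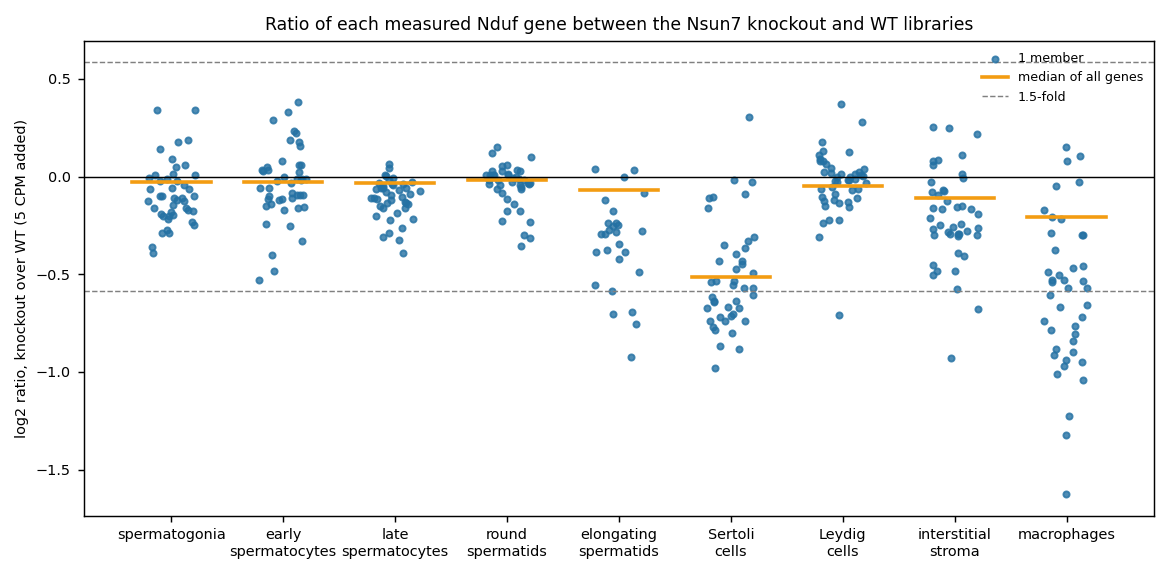
Log2 ratio of knockout over WT with 5 CPM added (y axis) for each measured member (points) in the 9 classes (x axis), with the median over all measured genes as a bar and dashed lines at 1.5-fold. Members lie near 0 in the first 4 germ cell stages and in Leydig cells, and lower in Sertoli cells and macrophages, where the medians of all genes are -0.51 in Sertoli cells and -0.20 in macrophages. The Sertoli and Leydig directions are lost with trimmed-mean scaling, and the elongating class turns to a summed ratio of 0.09 with trimmed-mean scaling.

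Among somatic classes, Leydig cells had a summed ratio of -0.04 (-0.06 to -0.02) and 1 of 45 measured members 1.5-fold lower, Ndufaf3, against 5.81% of all genes lower, 0.424% higher and 6.24% either way. The trimmed-mean factor there was -0.11, which is larger than the ratio and turns its direction. Ndufaf3 had 37.0 CPM in knockout and 63.6 CPM in WT Leydig cells. No free-RNA estimate was made in Leydig cells, whose own genes serve for it. Other genes highest in late spermatocytes were also lower in knockout Leydig cells. AA467197 had 7.27 CPM in the knockout and 64.4 CPM in the WT library. The testis forms of complex IV summed to 39.6 CPM in the knockout and 176 CPM in the WT library. The cause of the Ndufaf3 difference was not tested. Ndufaf4 was at the other end with 38.6 CPM in the knockout and 28.6 CPM in the WT library. Sertoli cells, which nurse the germ cells, had 3454 CPM in the knockout and 4871 CPM in the WT library, with 20 of 43 measured members lower against 43.9% of all genes lower, 10.1% higher and 54.0% either way. Across all genes the median there was -0.51, beside -0.57 for the members, and the trimmed-mean factor of -0.54 is about as large as the summed ratio of -0.50, so the direction is lost under that scaling. The lowest member was Ndufaf4, with 14.7 CPM in knockout and 33.9 CPM in WT Sertoli cells, and the highest Ndufa13, with 262 CPM in the knockout and 211 CPM in the WT library. The class joined cluster 5 with cluster 24, which held 18 knockout and 103 WT cells. In cluster 5 Ndufa13 stood at 272 CPM in knockout and 241 CPM in WT cells, and in WT cells of cluster 24 at 168 CPM. The summed ratio in cluster 5 was -0.48. Protamine and transition protein genes took 11.3% of counts in knockout and 4.47% in WT Sertoli cells.

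Macrophages had 2960 CPM in the knockout and 4386 CPM in the WT library, with 20 of 42 measured members lower against 26.9% of all genes lower, 7.49% higher and 34.4% either way. The median of the members was -0.57, beside -0.20 over all genes and a trimmed-mean factor of -0.23. Protamine and transition protein genes took 9.76% of counts in knockout and 6.17% in WT macrophages, and medians of 2224 counts in 185 knockout cells and 2098 counts in 250 WT cells stood behind the values. The 4 Leydig cell genes of the free-RNA estimate went the other way, at 16.0% of their library level in knockout and 24.2% in WT macrophages. The part of protamine and transition protein counts or of free RNA in the macrophage result was not tested. The lowest member was Ndufb4, with 12 counts (15.8 CPM) in the knockout and 52 counts (59.1 CPM) in the WT library. In interstitial stroma 2 of 44 members were lower, Ndufaf3 and Ndufaf5, against 15.2% of all genes lower, 7.03% higher and 22.3% either way. Ndufaf3 had 39.6 CPM in knockout and 79.7 CPM in WT stroma, and the interval for Ndufaf5 spans 0.

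Germ and somatic classes differed most for a few members. Over the mean of the 5 germ and the 4 somatic classes, Ndufaf2 stood at 136 CPM in germ and 40.7 CPM in somatic classes of the knockout and at 161 CPM in germ and 65.0 CPM in somatic classes of the WT library. Ndufb11 lay at the other end, with 27.6 CPM in germ and 167 CPM in somatic classes of the knockout and 21.8 CPM in germ and 159 CPM in somatic classes of the WT library. Ndufaf3 and Ndufa4l2 were also higher in germ classes, and Ndufv3 and Ndufc2 also higher in somatic ones. In Leydig cells, Ndufb11 reached 395 CPM in the knockout and 361 CPM in the WT library.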

How the data were processed

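Poly(A) RNA of single testis cells was measured in 1 Nsun7 knockout and 1 WT library on DNBelab C droplets, as the labels' protocols state. The deposited values are raw counts of molecules or reads per barcode. PISA 0.12 wrote the matrices per the file headers, and GRCm38 is the build in the submitters' processing notes. For the aligner, annotation, strand setting and barcode filter nothing is given in the sources used. The smallest barcode total was 1001 counts in both matrices.

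Matrices were joined by symbol. A cell needed 200 genes and a mitochondrial share of 20% or less (82.4% of barcodes passed in the knockout, 92.4% in the WT library). Scrublet, run on each library, called doublets (4.48% of knockout and 3.96% of WT cells), which were kept. Both libraries were clustered together on 3000 variable genes without Nsun7 and the members, with 40 components, 20 neighbours and Leiden resolution 1 in scanpy 1.11.5 and igraph 0.11.9 (Python 3.11.15). A cluster was named with at least 3 detected markers and left unnamed where over 50% were doublets, where its 10 leading genes pointed to another class, or where counts were low and no marker led. Class sums of counts were formed in each library and given as CPM with exact Poisson intervals, and ratios with exact conditional binomial ones. A class was compared where both libraries had at least 50 of its cells. Counting steps were tested on simulated data. Positions and overlaps came from the GENCODE M21 annotation of GRCm38.

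The members and gene lists were chosen with earlier results of these data known. Members given with values were the core subunits, the 5 with the most counts in germ classes, those with the highest and lowest ratios per class and step, and those at the ends of the germ over somatic ratio. One member enters every sum and count but is not reported here by its own values. Others are named as chosen after their values were seen or to complete a count. Of the listed genes, Coa1 was not analysed here. Ndufb1 and Ndufa4l3 enter no list, and values are given under the symbols Ndufb1-ps and AA467197 instead. Alternatives were a stricter filter, no doublets, separate clustering, 2 other scalings, deep cells only, free RNA subtracted, an equal cluster mix, no minimum level and a prior of 1 CPM, and, added after seeing the data, leaving out cluster 8 or Ndufa1.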

Additional observations from a re-analysis of the deposited data

Results flagged for a closer look

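Barcodes that the cell filter left out also held transcripts of the members. Their summed level was 5025 CPM over 2968 knockout barcodes and 5202 CPM over 1237 WT barcodes, against 2561 CPM over kept knockout cells and 4900 CPM over kept WT cells. These barcodes were in no comparison of the report. Their mitochondrial Nd genes stood at 83713 CPM in the knockout and 64828 CPM in the WT library.

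Ndufb1-ps, left out by the rule on symbols, had counts at the scale of the members: 79.7 CPM over kept knockout cells and 233 CPM over kept WT cells. RefSeq lists this symbol as a synonym of Ndufb1, a membrane-arm subunit, while GENCODE M21 types it as a long non-coding RNA from a bidirectional promoter. By class it stood at 406 CPM in knockout and 424 CPM in WT round spermatids, and at 8.32 CPM in knockout and 22.5 CPM in WT elongating spermatids. Its exons share 147 bases with Cpsf2 on the other strand.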

How the results depend on the processing

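The log2 ratios of summed level, knockout over WT, kept their sign in late spermatocytes and round spermatids under the alternatives run. In late spermatocytes the ratio of -0.12 became -0.129 with the libraries clustered separately, -0.0928 with free RNA subtracted, -0.0574 with an equal cluster mix, -0.0833 with trimmed-mean scaling and -0.0842 without cluster 8, which was chosen after seeing the data. In round spermatids -0.04 became -0.45 with separate clustering, -0.0006 with free RNA subtracted, -0.0801 with an equal mix and -0.0042 with trimmed-mean scaling, and the count of members 1.5-fold apart became 22 with separate clustering, beside 0. In elongating spermatids -0.25 became -0.40 with separate clustering, -0.21 with the scaling without mitochondrial, protamine and transition protein counts, -0.0931 with free RNA subtracted, -0.20 with an equal mix, and it reversed to 0.086 with trimmed-mean scaling. The count of 4 there became 11 with separate clustering, 1 with free RNA subtracted, 2 with an equal mix, 1 with trimmed-mean scaling and 8 with no minimum level. Between stages, round over late spermatocytes became -0.87 in the knockout and -0.55 in the WT library with separate clustering, -0.54 in WT with free RNA subtracted, and -0.56 in the knockout and -0.61 in WT without cluster 8. Elongating over round spermatids became -1.47 in the knockout and -1.52 in WT with separate clustering, -1.39 and -1.21 with the scaling without those counts, and -1.80 and -1.71 with free RNA subtracted. The membrane-arm sum, late over early spermatocytes, was -0.43 in WT and reversed to 0.0522 without Ndufa1. The cause of these shifts was not tested, apart from the separate clustering of round spermatids, which classes other cells, and the membrane-arm sum, which leaves out 1 gene. Of 520 alternative values of named members, 428 moved by less than counting error, 92 by more, and 0 changed sign where called. No paired analysis was possible because each genotype has 1 library and the labels give no replicate numbers.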

Other observations

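Cluster 19 was left unnamed because its leading genes, with Piwil1 first, were not markers of the class it scored for. It held 85 knockout and 555 WT cells. Its summed member level was 8530 CPM (8342 to 8721) in knockout cells and 9353 CPM (9294 to 9413) in WT cells, above each of the 5 germ cell classes compared in both libraries.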
